A study of Mus musculus with 12 samples.

Results

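Of 44748 regions bound by Ctr9 in mouse embryonic stem cells (mESCs), 6016 (13.4%) were also bound in NIH3T3 fibroblasts and carried no H3K27ac in either line. They were chosen by peak calls alone: a Ctr9 peak in mESCs had to overlap a Ctr9 peak in NIH3T3 cells by at least 1 bp and to overlap no H3K27ac peak of mESCs or NIH3T3 cells. The rule did not use the place along genes, the RNAPII peaks or the transcript levels described here, although it was drawn up with earlier results of these data known, whereas Ctr9 fold enrichment and width come from the calls that made it and are given as a description. These regions were 75.7% of the 7950 Ctr9 peaks that both lines shared, and the other 1934 overlapped H3K27ac.

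The study mapped Ctr9 by ChIP-seq in E14 mESCs and in NIH3T3 cells, an immortalised mouse embryonic fibroblast line. In both lines GFP had been knocked in at the C terminus of Ctr9, and the GFP-positive cells had been sorted as a pool and not as a clone. An antibody against GFP was used for ChIP. Both lines grew in the same medium with serum and LIF, and the paper describes no drug treatment of these samples. H3K27ac was mapped in both lines with 1 antibody, and RNAPII Ser5p, RNAPII Ser2p and GFP-tagged NELFA were mapped in mESCs only, NELFA from a tagged transgene. According to the paper, Ser5p was mapped in the NELFA-tagged mESCs as well, so overlaps of Ser5p with Ctr9 compare differently tagged cells. RNA-seq was made in both lines. Every group held 1 library, so no value here has a replicate error and no p-value is given. Intervals in parentheses are 95% intervals, exact Clopper-Pearson for shares and by order statistics for medians; they cover counting error only and treat peaks as independent, although many lie in the same gene.

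Ctr9 is a core subunit of the Paf1 complex, which travels with elongating RNA polymerase II (RNAPII) and takes part in histone modification, elongation and the processing of transcript ends. H3K27ac marks active promoters and enhancers. RNAPII is phosphorylated at Ser5 of its tail repeat mostly near starts of genes and at Ser2 mostly along and beyond the gene body, and NELFA belongs to the factor that holds RNAPII paused shortly after initiation.

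The regions with the highest enrichment in both lines lay in or just beyond genes for abundant housekeeping proteins, and the reference sequence at 5 of them is shown because these were among the most strongly enriched regions of both lines. The bases are from the RefSeq GRCm38 (mm10) genome, on the strand of the named gene, 5′ to 3′. At Hspa8, in an annotated intron (chr9:40806909-40807065, plus strand), and past the end of Rpl23 (chr11:97776806-97777068, minus strand, outside protein-coding genes), capitals mark the stretch from the summit of 1 line to that of the other; at Taf1d (chr9:15317748-15317848, plus strand, an exon of the overlapping gene Cep295), past Nfe2l3 (chr6:51459624-51459724, plus strand) and past Hnrnpdl (chr5:100032670-100032770, minus strand), both outside protein-coding genes, capitals mark the 21 bases around the mESC summit, and the NIH3T3 summit lay 5309, 721 and 542 bps away.
Hspa8: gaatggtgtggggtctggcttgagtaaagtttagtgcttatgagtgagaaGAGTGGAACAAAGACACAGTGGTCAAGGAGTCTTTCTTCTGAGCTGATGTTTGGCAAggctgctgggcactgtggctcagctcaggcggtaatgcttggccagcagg
Rpl23: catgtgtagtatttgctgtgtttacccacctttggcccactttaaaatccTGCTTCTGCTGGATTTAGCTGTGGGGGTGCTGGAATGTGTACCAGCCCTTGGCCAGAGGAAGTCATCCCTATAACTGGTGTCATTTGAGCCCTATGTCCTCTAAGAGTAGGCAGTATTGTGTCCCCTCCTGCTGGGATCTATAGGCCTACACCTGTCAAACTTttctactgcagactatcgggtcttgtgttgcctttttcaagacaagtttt
Taf1d: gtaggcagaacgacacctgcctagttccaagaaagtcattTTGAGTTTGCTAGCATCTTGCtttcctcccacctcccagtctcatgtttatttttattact
Nfe2l3: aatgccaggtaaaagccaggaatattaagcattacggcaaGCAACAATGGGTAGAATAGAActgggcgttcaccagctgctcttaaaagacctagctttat
Hnrnpdl: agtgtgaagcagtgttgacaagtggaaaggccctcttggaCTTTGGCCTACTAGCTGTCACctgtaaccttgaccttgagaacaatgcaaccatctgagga

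A further group of regions covered microRNA clusters, and their mature sequences (RefSeq, GRCm38.p6) are shown because clusters on different chromosomes that carry the same seeds were both among the regions. This group was picked after its values were seen. Capitals mark the seed, bases 2 to 8. miR-17-5p, miR-20a-5p, miR-18a-5p, miR-19a-3p, miR-19b-3p and miR-92a-3p come from the cluster in Mir17hg on chromosome 14, and miR-93-5p, miR-106b-5p and miR-25-3p from the cluster in Mcm7 on chromosome 5. The seed AAAGUGC is shared by the 4 members listed at the top, GUGCAAA by both miR-19 forms, and AUUGCAC by miR-92a-3p and miR-25-3p.
miR-17-5p: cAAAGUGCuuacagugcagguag
miR-20a-5p: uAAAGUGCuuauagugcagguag
miR-93-5p: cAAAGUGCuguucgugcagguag
miR-106b-5p: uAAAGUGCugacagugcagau
miR-18a-5p: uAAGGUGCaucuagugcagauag
miR-19a-3p: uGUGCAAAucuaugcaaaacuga
miR-19b-3p: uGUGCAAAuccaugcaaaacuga
miR-92a-3p: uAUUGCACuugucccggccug
miR-25-3p: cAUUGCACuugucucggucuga
The Ctr9 region over Mir17hg (chr14:115043638-115052018) was 8381 bps wide with a fold enrichment, the read pileup at the summit over local background, of 11.8 in mESCs, and its NIH3T3 counterpart was 2525 bps wide with 8.54. Mir17hg itself stood at 23.5 TPM (transcript level normalised by the authors for length and depth) in mESCs and 7.48 in NIH3T3 cells. The region over the miR-106b cluster (chr5:138162593-138168813) reached 18.1 in mESCs and 14.3 in NIH3T3 cells, and its host Mcm7, a subunit of the replicative helicase, stood at 174 and 99.3 TPM. Both regions overlapped a Ser5p and a Ser2p peak in mESCs and came within 699 to 1006 bps of an H3K27ac peak without touching it. Over the miR-106a hairpin of the related cluster on chromosome X no Ctr9 peak was called in either line, and the other hairpins of that cluster were not examined. A region on chromosome 8 (chr8:84206841-84212000, mESC fold 18) held miR-23a, miR-27a and miR-24-2 in mESCs. The strongest NIH3T3 peak it overlapped (chr8:84210289-84212825, fold 5.88) began beyond these hairpins, but 1 NIH3T3 peak was called over the miR-23a hairpin.

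In all, the mESC peaks of 30 regions held 41 of the 1005 miRNA hairpins in the RefSeq table. That was 0.499% of the regions (0.337 to 0.711), beside 0.273% of all mESC Ctr9 peaks, 1.40% (0.922 to 2.02) of the shared peaks with H3K27ac and 0.161% (0.121 to 0.211) of the Ctr9 peaks without H3K27ac that were called in mESCs only. Among peaks wider than 1000 bps the shares were 0.873% (0.50 to 1.41) in the regions, 0.959% in all, 2.35% (1.48 to 3.53) in shared peaks with H3K27ac and 0.730% (0.486 to 1.05) in mESC-only peaks.

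Along genes, the regions without H3K27ac lay in gene bodies and around gene ends and seldom at starts. Of their mESC summits, 57% (55.7 to 58.2) fell in the body of a protein-coding gene, 17.1% (16.1 to 18) within 1 kb of an annotated end, 17.6% (16.7 to 18.6) farther out but up to 5 kb past an end, 2.19% (1.84 to 2.60) within 1 kb of a start and 6.15% (5.56 to 6.79) elsewhere. Because the rule removes acetylated starts, the low share at starts is not independent of it, and the fitting comparison is with the 32871 Ctr9 peaks that were called in mESCs only and also lacked H3K27ac. In those, 12.8% (12.5 to 13.2) lay near ends, 11.8% (11.5 to 12.2) past ends and 2.04% (1.89 to 2.2) near starts. The shared regions with H3K27ac had 45.2% (43.0 to 47.5) near starts. Even the 132 regions near a start were mostly near an end as well: 106 of them (80.3%, 72.5 to 86.7) lay within 1 kb of, or up to 5 kb past, the end of a gene, against 63.1% (59.4 to 66.8) of the mESC-only start peaks.

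**Figure D1:**
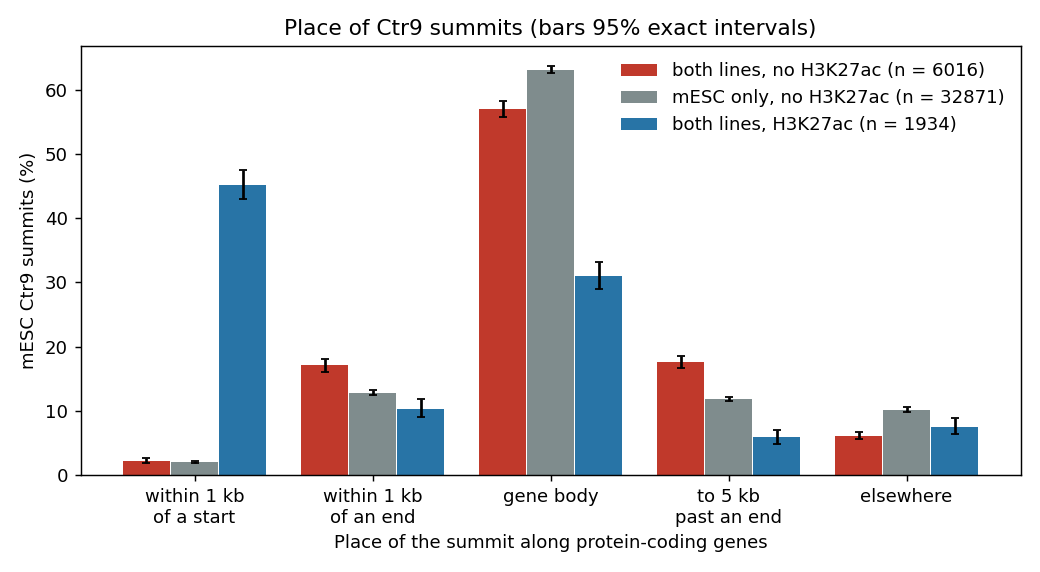
Share of mESC Ctr9 summits (%) at each place along protein-coding genes for the shared regions without H3K27ac (red), the mESC-only peaks without H3K27ac (grey) and the shared peaks with H3K27ac (blue), with 95% exact intervals. The red bars for ends (17.1%) and past ends (17.6%) stand above the grey ones (12.8% and 11.8%), and the blue bars stand highest at starts (45.2%).

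The summits peaked beyond the annotated end rather than on it. Counted from the nearest gene end in steps of 500 bps, the fullest step was 500 to 1000 bps past the end with 6.78% of the regions, beside 4.41% of the mESC-only peaks in the same step. Among the 2086 regions near or past an end, 81.4% (79.7 to 83.0) had their summit past it, at a median of 1029 bps (965 to 1107), and the far edge of the peak reached a median of 1956 bps (1840 to 2052). The peak spanned the annotated end itself in 23.9% (22.1 to 25.8). The NIH3T3 summit lay neither farther along nor farther back than the mESC summit: the median offset was 1.00 bps (-16 to 18), and 50.0% (47.8 to 52.2) were farther along. The nearest NIH3T3 summit fell in the same class of place for 88.8% (88.0 to 89.6) of the regions. The rule requires overlapping peaks, and the nearest summit of an overlapping NIH3T3 peak lay a median of 238 bps (227 to 247) away. The classes of place are wider than that, so the share in the same class largely follows from the rule. The rule also limits the size of the offset, but it does not fix its direction.

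**Figure D2:**
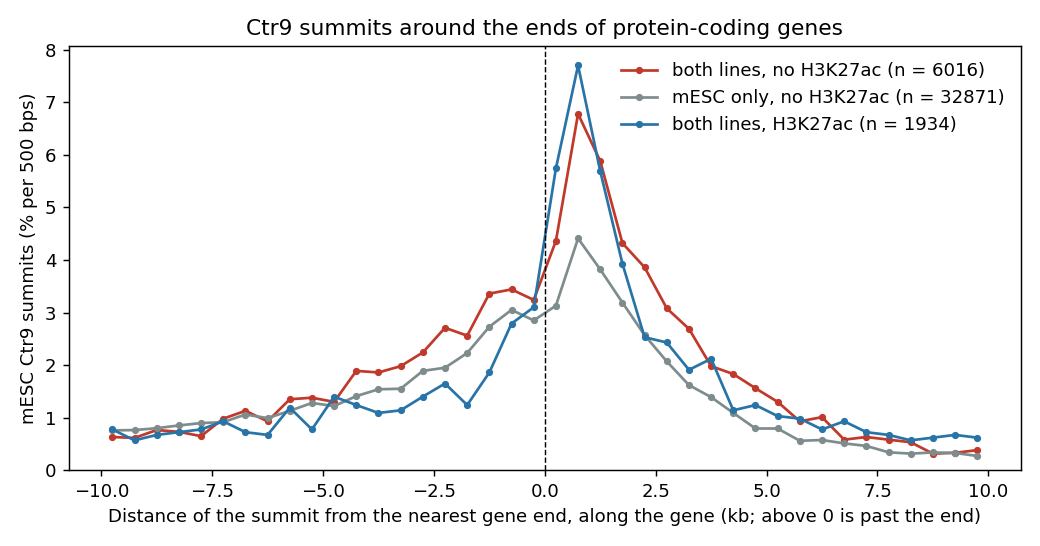
Share of mESC Ctr9 summits (% per 500 bps) against distance from the nearest protein-coding gene end in kb, with values above 0 past the end, for the same 3 sets of peaks. All lines peak 500 to 1000 bps past the end, the regions without H3K27ac at 6.78% and the mESC-only peaks at 4.41%.

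Wide peaks lay at ends more often than narrow ones, so the shares are also given by width. Among peaks wider than 1000 bps, 25.6% (23.7 to 27.7) of the regions were near an end and 27.3% (25.3 to 29.4) past one, beside 22.0% (20.7 to 23.3) and 17.7% (16.5 to 19) of the mESC-only peaks. Among peaks up to 400 bps wide the shares near an end were 12.1% (10.7 to 13.5) and 10.3% (9.88 to 10.8), and between these widths they overlapped, at 14.6% (13.1 to 16.2) and 14.0% (13.3 to 14.6). Inside genes of at least 10 kb, summits of the regions sat at a median of 0.758 of the way from start to end (0.745 to 0.774), beside 0.663 (0.658 to 0.670) for mESC-only peaks, and 28.8% fell in the last 10% of the gene against 20.9%. Of the 4030 region summits inside a protein-coding gene, including those near its start or end, 37.3% (35.8 to 38.8) were in an exon. The share was 29.8% (29.2 to 30.4) for mESC-only peaks. Exons made up 9.23% of the length of all protein-coding genes, a figure that takes no account of where along the gene the summits lay.

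The bases under the summits held less GC and fewer CpG dinucleotides than those of shared peaks with H3K27ac. In windows of 201 bases around the mESC summit, the median GC content was 48.3% (47.8 to 48.3) in the regions, 49.3% (49.3 to 49.3) in mESC-only unacetylated peaks and 54.7% (53.7 to 55.2) in shared peaks with H3K27ac. The mean number of CpG dinucleotides was 2.51, 2.84 and 9.61. These sets differ in place, as 2.19% of the regions and 45.2% of the shared peaks with H3K27ac lay near starts. Past ends the regions and the shared peaks with H3K27ac had a median GC of 47.8% and 48.8% and mean CpG of 2.06 and 3.37. In gene bodies the same sets had 47.3% and 52.2%, and 2.56 and 7.54. The GC box GGGCGG, searched on both strands, occurred in 3.34% (2.90 to 3.83) of the regions and 3.93% (3.72 to 4.14) of the mESC-only windows. It occurred in 5.43% (5.23 to 5.65) of all mESC Ctr9 windows and 22.1% (20.2 to 24.0) of those of shared peaks with H3K27ac. The polyadenylation hexamer AATAAA, searched on both strands, occurred in 14.3% (13.5 to 15.3) of the regions and in 13.3% (13.0 to 13.6) of all windows. These letters are a description of the windows and not of bound factors.

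Enrichment and width were moderate and were ordered differently in the 2 lines. The median fold enrichment of the regions was 4.06 (4.05 to 4.09) in mESCs, and that of the strongest overlapping NIH3T3 peak was 4.78 (4.75 to 4.78); all Ctr9 peaks had medians of 3.71 in mESCs and 4.27 in NIH3T3 cells. Median widths were 554 bps (537 to 574) and 644 bps (613 to 664). Across the 6016 regions the Spearman correlation of fold enrichment between the lines was 0.144 and that of width 0.0265, whereas fold and width within a line were correlated at 0.702 in mESCs and 0.700 in NIH3T3 cells; regions of 1 gene, and regions that met the same NIH3T3 peak, share their values in these figures. A fold of at least 10 was reached by 295 regions in mESCs (4.90%), by 395 in NIH3T3 cells (6.57%) and by 56 in both (0.931%). In mESCs it was reached by 2.52% of all Ctr9 peaks, 0.691% of the mESC-only unacetylated peaks and 20.4% of the shared peaks with H3K27ac. Regions near ends had a median of 4.76 (4.56 to 4.89) in mESCs and a median width of 844 bps (778 to 950), those past ends 4.89 (4.72 to 5.06) and 916 bps (813 to 1019), and those in gene bodies 3.88 (3.82 to 3.88) and 470.5 bps (457 to 486). In NIH3T3 cells the same 3 classes had like medians of fold, 4.78, 4.78 and 4.71. The mESC summit lay a median of 286 bps (274 to 298) from the summit of the strongest overlapping NIH3T3 peak and 238 bps (227 to 247) from the nearest summit of any overlapping one.

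At the edges of the rule, 29 regions shared at most 10 bps with a NIH3T3 peak (median mESC fold 3.83), and 338 unacetylated mESC peaks lay within 100 bps of a NIH3T3 peak without touching it (3.56). Likewise 43 regions lay within 100 bps of an H3K27ac peak (3.54), and 41 shared peaks were left out for an overlap with H3K27ac of at most 100 bps (3.76). The nearest H3K27ac peak was a median of 13.1 kb away in mESCs and 11.5 kb in NIH3T3 cells.

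**Figure D3:**
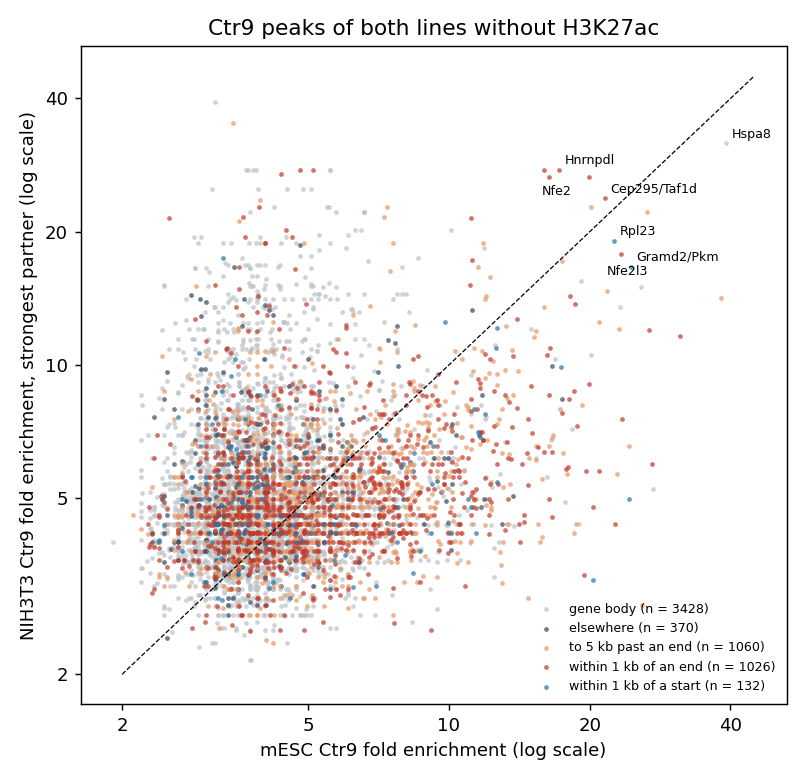
Ctr9 fold enrichment of the 6016 regions in mESCs (x axis) and of the strongest overlapping NIH3T3 peak (y axis), both on log scales, coloured by place along genes; the dashed line marks equal values. Most points lie between 3 and 8 with little order between the lines, and the labelled regions are the 7 that carry the 10 genes with the highest lower value, led by Hspa8 at 39.1 and 31.7.

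Hspa8, which encodes a constitutive chaperone of the Hsp70 family, had the highest value in mESCs. Its region (chr9:40806158-40809215) had a fold of 39.1 in mESCs and 31.7 in NIH3T3 cells, the widths were 3058 and 2947 bps, and the summits were 56 bps apart. The gene stood at 719.9 and 553 TPM, and the region overlapped Ser5p, Ser2p and NELFA peaks. The region at Taf1d, a subunit of the RNA polymerase I promoter factor, covered 8 snoRNA genes and the convergent end of Cep295, with 21.5 in mESCs and 23.8 in NIH3T3 cells. Hnrnpdl, an RNA-binding protein, had 17.2 and 27.6, with the mESC summit 857 bps past its end. The region past Rpl23, a ribosomal protein gene at 1584 and 1478 TPM, had 22.6 and 19.1, and its summit lay 671 bps past the gene end. At Pkm, which encodes pyruvate kinase, the values were 24.5 and 16.7, with the summit 812 bps past the end and 43 bps inside Gramd2, a gene of 0.768 and 1.84 TPM.

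Several regions with high values carried the names of genes with little or no RNA, and each of these lay inside or past the end of an abundantly expressed neighbour. At Nfe2, an erythroid transcription factor of 0.986 TPM in mESCs and listed at 0 in NIH3T3 cells, the fold was 19.9 and 26.6; the summit lay 1667 bps past the end of Hnrnpa1, which is on the opposite strand and stood at 925 and 1285 TPM. At Nfe2l3, at 0.817 TPM and listed at 0, it was 23.3 and 17.9, 1258 bps past the end of the opposite gene Hnrnpa2b1 at 557 and 409.7 TPM. The widest region of all, 22248 bps at Shcbp1l (0.131 TPM and listed at 0), had its summit 2339 bps past the end of Dhx9, an RNA helicase gene at 205 and 143 TPM. The region of 13880 bps at Phykpl lay 4579 bps past Hnrnpab (481 and 479 TPM), and that of 11914 bps in Il12rb2 (0.0422 TPM and listed at 0) lay inside the annotated Serbp1 gene (686 and 553 TPM). Among the widest regions at named genes was also one of 12496 bps in Zfp710 (37.5 and 2.38 TPM), with a fold of 8.76 and 8.94; a region away from protein-coding genes was 12766 bps wide. Among all genes with a region, 188 were under 1 TPM in both lines, and for 116 of these (61.7%, 54.3 to 68.7) every region lay in, or up to 5 kb past, another gene of at least 10 TPM in both lines. Of all 6016 regions, 80.9% (79.9 to 81.9) lay in or up to 5 kb past such a gene, beside 78.1% (76.2 to 80.0) of the shared peaks with H3K27ac and 54.7% (54.2 to 55.2) of the mESC-only peaks.

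Farther than 1 kb past an end, and so outside the rule by which genes were named, the 6 regions with the highest lower value of both lines were chosen after their values were seen. They followed Hnrnpk, Sfpq and Srsf6, which encode RNA-binding and splicing proteins, Csnk1a1, a casein kinase, Ptma, the source of prothymosin alpha, and Eif5, a translation initiation factor. The region past Hnrnpk had 26.5 in mESCs and 22.2 in NIH3T3 cells with summits 34 bps apart, 1776 bps beyond the gene. That past Ptma had 38.1 and 14.1, 1046 bps beyond a gene of 4615 and 3464 TPM. All 6 overlapped a Ser2p peak, and Sfpq, Srsf6 and Ptma also a Ser5p peak.

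Few of the regions overlapped a called RNAPII peak, and those that did were wide and strongly enriched. A Ser2p peak was overlapped by 230 (3.82%, 3.35 to 4.34), beside 2.40% of all mESC Ctr9 peaks and 0.663% (0.578 to 0.757) of the mESC-only unacetylated peaks; the share was 21.8% (19.9 to 23.7) in shared peaks with H3K27ac. A Ser5p peak was overlapped by 164 (2.73%, 2.33 to 3.17), beside 5.60% of all and 1.29% (1.17 to 1.41) of the mESC-only peaks. A NELFA peak was overlapped by 17 (0.283%, 0.165 to 0.452), beside 1.82% of all. None of the 3 was present at 95.5% (94.9 to 96.0) of the regions. The shares for Ser5p and NELFA over all Ctr9 peaks include acetylated starts, which the rule removed; 43.9% (41.7 to 46.1) of the shared peaks with H3K27ac overlapped Ser5p.

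**Figure D4:**
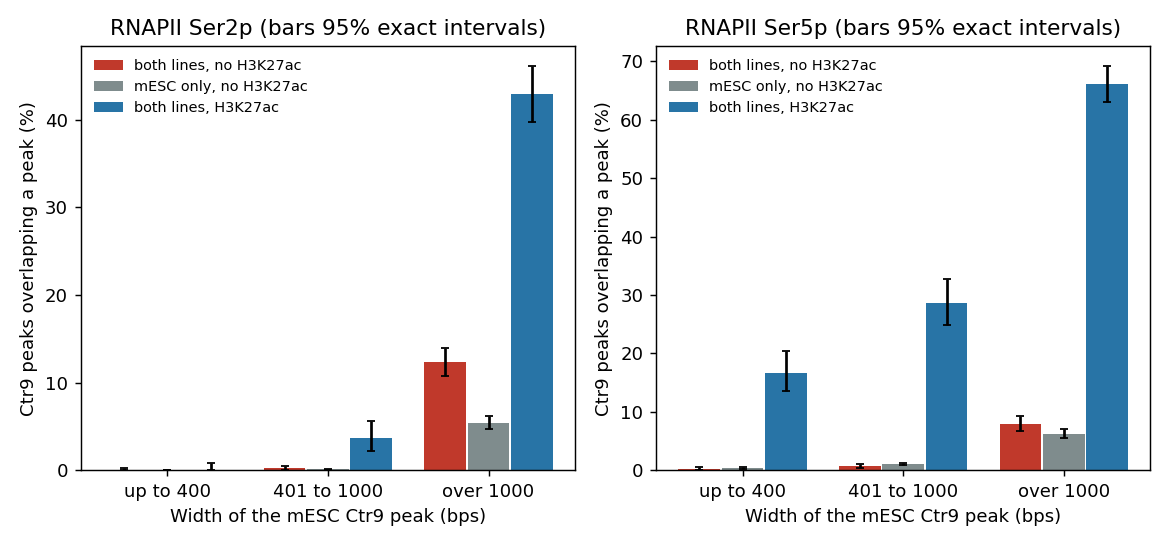
Share of mESC Ctr9 peaks (%) that overlapped an RNAPII Ser2p peak (left) or Ser5p peak (right), by width of the Ctr9 peak in bps and by set, with 95% exact intervals; the y axes differ. Among peaks over 1000 bps wide, 12.3% of the regions without H3K27ac overlapped Ser2p against 5.42% of the mESC-only peaks, while for Ser5p the shares were 7.91% and 6.26%.

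RNAPII overlap went with width, as 225 of the 230 regions with Ser2p were over 1000 bps wide. In that class 12.3% (10.8 to 13.9) of the regions met Ser2p, beside 5.42% (4.73 to 6.19) of the mESC-only peaks and 42.9% (39.7 to 46.1) of the shared peaks with H3K27ac. Ser5p was met by 7.91% (6.72 to 9.24), 6.26% (5.51 to 7.07) and 66.2% (63.0 to 69.2) of the same sets. By place, Ser2p was met by 8.09% (6.49 to 9.93) of regions near ends, 6.32% (4.93 to 7.96) past ends and 1.55% (1.16 to 2.02) in gene bodies. Regions with a Ser2p peak had a median fold of 12.2 (11.6 to 13.1) in mESCs and 6.16 (5.77 to 6.56) in NIH3T3 cells and a median mESC width of 4116 bps (3820 to 4477), against 4.05, 4.75 and 528 bps without. Seen from the RNAPII side, 378 of the 1675 Ser2p peaks (22.6%) overlapped one of the regions, as did 246 of 4490 Ser5p peaks (5.48%) and 17 of 1980 NELFA peaks (0.859%). The Ser2p list was short, and a region without a Ser2p peak is a region where none was called.

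Genes with these regions had like median levels of RNA in both lines, above those of all genes. The medians were also above those of genes with a shared, acetylated Ctr9 peak and no region, with intervals that overlapped in mESCs but not in NIH3T3 cells. With a summit in the gene body or within 1 kb, 4586 regions (76.2%) belonged to 1941 protein-coding genes, 1937 of them with a TPM. Their median was 24.0 TPM (21.9 to 26.5) in mESCs and 23.5 TPM (21.9 to 25.4) in NIH3T3 cells, beside 5.60 and 7.64 TPM for all protein-coding genes above 0, and 12.9 and 8.83 TPM for genes with an mESC-only unacetylated peak and no such region. Genes with a shared peak with H3K27ac and no such region had 20.4 TPM (17.2 to 22.9) and 17.0 TPM (14.9 to 19.8). A level of at least 10 TPM in both lines was found for 62.4% (60.2 to 64.6) of the genes with a region, 56.5% (53.2 to 59.7) of those with a shared acetylated peak alone and 22.9% (22.3 to 23.5) of all genes. As a check of the labels, 8 pluripotency markers ranged from 89.7 to 3190.4 TPM in mESCs and from 0 to 26.3 TPM in NIH3T3 cells, and 8 fibroblast markers from 0.132 to 162 TPM in mESCs and from 39.6 to 3337 TPM in NIH3T3 cells.

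A level at least 2-fold apart between the lines, on log2(TPM + 1) and among genes of at least 1 TPM in either line, was seen in 518 of 1749 genes with a region (29.6%, 27.5 to 31.8). Of these, 248 (14.2%) were higher in mESCs and 270 (15.4%) higher in NIH3T3 cells, beside 23.8% and 20.0% of all 12379 genes. Among genes with a shared acetylated peak and no region 32.4% (29.3 to 35.7) were 2-fold apart, an interval that overlaps that of the genes with a region. Without the filter on low levels the shares were 26.7% for genes with a region and 24.8% for all genes. A gene under 1 TPM in both lines cannot be 2-fold apart on this scale, so this step only adds genes that cannot count. Such genes were 9.71% of the genes with a region and 43.5% of all genes. Across the 1937 genes the Spearman correlation of TPM between the lines was 0.862, and that of the difference in TPM with the ratio of Ctr9 folds was 0.0733; genes that share a region share its fold.

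Among genes with a region, which by the rule have a Ctr9 peak in both lines, those that differed most in RNA were the following. Aebp1, a matrix-associated protein, stood at 0.542 TPM in mESCs and 333 TPM in NIH3T3 cells, and its region had a fold of 3.91 and 5.77. Fosl1, an AP-1 subunit, stood at 0.287 and 106 TPM with 4.55 and 7.08, and Nfix, a transcription factor, at 0.0465 and 53.9 TPM with 5.22 and 7.95. Ltbp3 and Igfbp7, secreted regulators of growth factors, stood at 0.485 and 76.0 TPM and at 1.69 and 70.9 TPM. At Aebp1, Fosl1, Nfix and Igfbp7 a gene on the opposite strand with at least 10 TPM in both lines ended nearby, the summit lying 536 bps (Trmt1, at Nfix) to 2274 bps (Polr2b, at Igfbp7) past its end. In the other direction, Ckb, brain creatine kinase, stood at 142 TPM and Nodal, a TGF-beta ligand, at 50.4 TPM in mESCs, and both were listed at 0 in NIH3T3 cells, where their regions had 4.58 and 6.76 against 4.26 and 6.31 in mESCs. Crip1 and Slc16a3, a lactate transporter, were likewise listed at 0 in NIH3T3 cells, and Cbx7, a Polycomb protein, stood at 56.7 and 1.36 TPM.

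Most genes with a region had H3K27ac at their start, although the Ctr9 region itself had none. An H3K27ac peak of either line lay within 1 kb of the start in 82.4% (80.6 to 84.1) of the 1941 genes, of mESCs in 69.0% (66.9 to 71.0) and of NIH3T3 cells in 81.4% (79.6 to 83.1). Among genes of at least 1 TPM in both lines the shares were 79.8% (77.7 to 81.7) and 92.4% (91.0 to 93.7), beside 66.9% and 87.4% of all such genes. A second Ctr9 peak that was shared and acetylated was present at 637 of the genes (32.8%, 30.7 to 35.0). Such a peak was present at 1473 of the 12379 genes of at least 1 TPM in either line. It was present at 759 of the 3035 genes of at least 20 TPM in both lines.

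Regions were unevenly spread over genes: 959 genes (49.4%) had 1 region, and 69 genes with at least 10 held 1090 regions. Chd2, a chromatin remodeller, had 41, Nedd4, a ubiquitin ligase, 36, and Fn1, fibronectin, 34. The regions in Fn1 had folds of 2.78 to 5.56 in mESCs, at 75.7 TPM, and met NIH3T3 peaks of 5.81 to 18.8, at 406 TPM; 1 NIH3T3 peak of 21894 bps met the strongest of them. Gm20388 was annotated with 48, but it spans several other genes, among them Map1lc3b and Zcchc14.

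By gene group, genes for RNA-binding and splicing proteins carried regions most often, and histone and pluripotency genes least. The pluripotency genes seldom had the NIH3T3 Ctr9 peak that the rule requires. Of the 12379 genes of at least 1 TPM in either line, 14.1% had a region, and of the 3035 genes of at least 20 TPM in both lines 29.4% did. The lists were drawn up with earlier results known, so their counts are a description. Of 45 splicing factor and hnRNP genes 35 had a region (77.8%) and 39 had a shared peak with H3K27ac; examples with a region were Hnrnpa3 (fold 31.3 in mESCs and 11.6 in NIH3T3 cells), Ptbp1 (16.4 and 26.6) and Srsf7 (16.5 and 10.9). Of 28 chaperone genes 18 had a region and 17 a shared peak with H3K27ac, with Hspd1 at 17.8 and 5.81, and of 26 translation factors 15 and 14 did, with Eif4g2 at 25.8 and 15 and summits 21 bps apart.

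Among the other expressed groups, 21 of 40 chromatin and RNAPII machinery genes had a region and 13 a shared peak with H3K27ac, among them Pcf11, a termination factor, with 8 regions, and Supt5, an elongation factor, with 4. Of 24 immediate early genes 10 had a region, led by Zfp36l1 (14.8 and 5.36), and 13 a shared peak with H3K27ac. Of 19 glycolysis genes 7 had a region, led by Pkm, and 10 a shared peak with H3K27ac. Of 33 cytoskeleton genes 12 had a region, among them Tuba1c (13.6 and 6.12) and Vim (11.6 and 8.85, 914 bps past its end), and 21 a shared peak with H3K27ac. Of the snoRNA hosts that code for protein 3 of 9 had a region (Taf1d, Gnl3 and Nop58) and 8 a shared peak with H3K27ac. Across all genes, 48 of 1558 snoRNA genes lay in 35 of the regions (0.582%, 0.406 to 0.808), beside 0.299% of all mESC Ctr9 peaks, 3.36% (2.60 to 4.26) of the shared peaks with H3K27ac and 0.0913% (0.0616 to 0.130) of the mESC-only peaks.

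Genes of at least 20 TPM in both lines had a region more often (29.4%) than all genes tested (14.1%), but not every group with abundant RNA did. Of 84 cytosolic ribosomal protein genes, whose median was 1589 TPM in mESCs, 12 had a region (14.3%, the level of all genes), whereas 51 had a shared peak with H3K27ac. The rule leaves such acetylated peaks out of the regions, so this count depends in part on it. Ppia, a cyclophilin gene at 3727 and 3083 TPM, had no region. Of 35 replication-dependent histone genes, which are short, lack introns and stood at a median of 2.66 TPM in mESCs, 0 had a region and 22 had a shared peak with H3K27ac. Of 20 naive pluripotency genes 1, Klf4, at 89.7 and 26.3 TPM, had a region (3.40 and 4.23), and of 24 fibroblast matrix genes Fn1, Ccn2 and Sparc did. The rule needs a Ctr9 peak in both lines, which limits both of these counts. Only 4 of the pluripotency genes had a Ctr9 peak in NIH3T3 cells, and only 5 of the matrix genes had a Ctr9 peak in mESCs. A shared peak with H3K27ac was found at 2 genes of each of these lists.

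**Figure D5:**
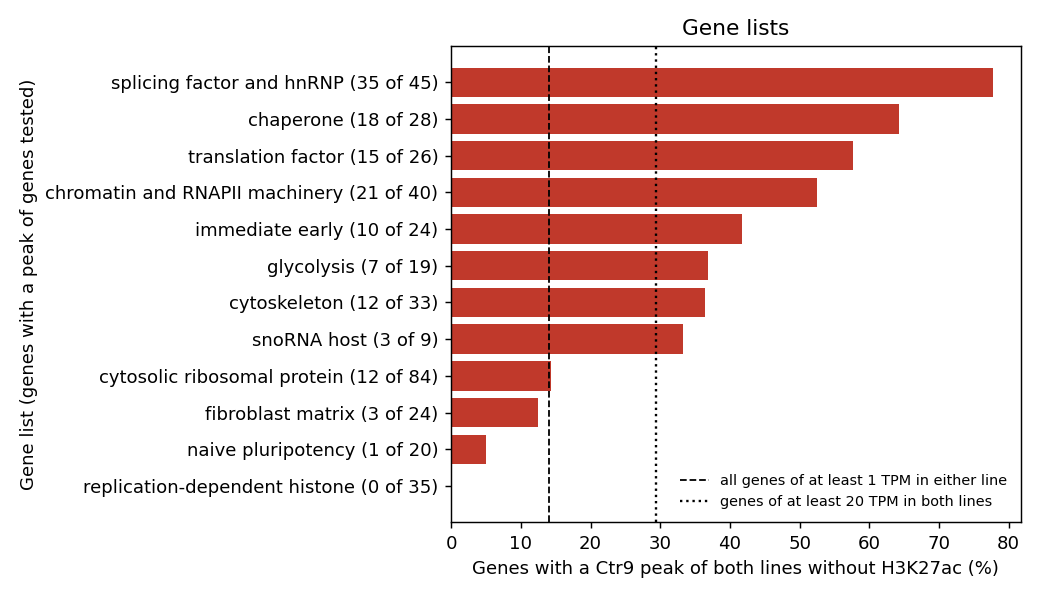
Share (%) of the genes of each list, among genes of at least 1 TPM in either line, that had a Ctr9 region of both lines without H3K27ac; dashed and dotted lines mark all such genes (14.1%) and genes of at least 20 TPM in both lines (29.4%). Splicing factor and hnRNP genes stand at 77.8% and ribosomal protein genes at 14.3%.

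The 370 regions elsewhere, away from protein-coding genes and from the 5 kb past their ends, had a median mESC fold of 3.88 (3.71 to 4.05), and 114 of them (30.8%, 26.1 to 35.8) overlapped a noncoding gene. Picked after their values were seen, those highest in both lines included Snhg17, a snoRNA host (11.2 in mESCs and 13.3 in NIH3T3 cells), Mir17hg and an unannotated stretch on chromosome 4 (chr4:12235360-12238075, 16.6 and 9.93). A region 5554 bps past Rbfox2, a splicing regulator of 17.4 and 45 TPM, had 17.5 and 8.39. All 4 overlapped both a Ser5p and a Ser2p peak.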

How the data were processed

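Peak lists and transcript tables were used as deposited. According to the study's methods, the authors aligned ChIP-seq reads to mm10 with Bowtie2 2.3.5.1, removed blacklisted regions and called peaks per library with MACS2 2.2.6 at q 0.01. The deposited lists give a score (from the q-value), the fold enrichment ratio at the summit, and −log10 p and −log10 q. The lists give no read counts, so ChIP depth is unknown. RNA-seq was quantified by the authors with kallisto on GENCODE M19 as estimated counts (26400407 in mESCs, 28849497 in NIH3T3 cells) and TPM per transcript; the transcript with the highest TPM stood for its gene. Of 12 samples, 9 had a file; the inputs were not used here.

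Overlaps, places and medians were computed in Python 3.11.15 (SciPy 1.17.1, NumPy 2.4.6 and pandas 2.3.3) and plotted with Matplotlib 3.10.9; 9 checks of these functions were tested on simulated data and passed. Gene positions came from GENCODE M21 (21905 of 21938 protein-coding genes matched a TPM), where a gene ends at its farthest transcript. A place was assigned in the order start, end, body, past end. The regions and gene lists were chosen with earlier results of these data known. Genes named are the 10 with the highest lower fold of both lines, the 5 with most regions, the 5 with the widest, the 5 most different in TPM each way, up to 4 per list by mESC fold, and Ppia; a gene with several regions is described by the one with the highest lower fold. Some items that this rule names are not reported here. Sequences are those of the 10 whose window met no annotated UTR and lay outside chromosome 18. With 1 library per group no test was made. The 55 alternatives concerned peak threshold, overlap, distances, gene set, summary of TPM and filters.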

Additional observations from a re-analysis of the deposited data

How the results depend on the processing

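No paired analysis was possible because every group held 1 library and no result comes from a test; for the same reason no library could be left out. Of 55 alternatives over 11 results, 28 stayed within the interval of the reported value (for the number of regions, within 1.5 times) and 27 moved beyond it. With −log10 q of at least 5 in both Ctr9 lists, 3830 regions were left, 19.2% of them near ends, 5.67% with Ser2p and 3.99% with Ser5p, and the median folds were 4.55 in mESCs and 5.17 in NIH3T3 cells. Taking as many mESC as NIH3T3 peaks left 3719 regions. An overlap of 50% of the shorter peak gave a median mESC fold of 4.17. Barring H3K27ac within 1 kb gave 1.70% near starts and 2.28% with Ser5p.

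The share near ends was 7.45% at 500 bps (all mESC Ctr9 peaks 5.79%), 18.1% with all annotated genes (13.8%) and 43.8% with 1 peak a gene, where the mESC-only peaks had 37.7%. The share near starts was 1.18% (all mESC Ctr9 peaks 3.41%), 6.47% (9.81%) and 6.19%, where the mESC-only peaks had 6.79%. A peak within 1 kb gave 5.04% for Ser2p (all mESC Ctr9 peaks 3.13%) and 4.49% for Ser5p (8.96%). The summit inside the peak gave 2.73% for Ser2p (1.83%) and 1.91% for Ser5p (3.72%). Mean folds were 4.89 in mESCs and 5.63 in NIH3T3 cells, and the NIH3T3 partner with the nearest summit gave a median of 4.58. Summing over transcripts gave median levels of 40.5 TPM in mESCs and 42.1 TPM in NIH3T3 cells. The share of genes 2-fold apart was 32.5% with a pseudocount of 0.1 (all genes 48.8%) and 26.7% without a filter on low values (all genes 24.8%), where it was no longer below that of all genes. The shift without the filter comes only from the genes it adds, none of which can be 2-fold apart on log2(TPM + 1). The cause of the other shifts was not tested.

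ChIP depth is unknown, so an uncalled peak does not show that Ctr9, H3K27ac or RNAPII is absent. The mESC Ctr9 list holds 44748 peaks and that of NIH3T3 cells 22016, and differences between the lines cannot be told apart from differences between libraries. Ctr9 and NELFA were both read through GFP, and no GFP ChIP of untagged cells was analysed here. RNAPII and NELFA were compared in mESCs only.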
